A study of Homo sapiens with 24 samples.

Results

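The 45 genes described here encode the proteins that license, unwind and copy chromosomal DNA, together with the cyclins E and E2F factors that carry cells from G1 into S phase. They were chosen by name: a row of the deposited count table belongs to the set if its gene name is on a list of 45 symbols. The rule itself uses no measured value, but the list was drawn up with earlier results of these data known. All 45 were found among the 58735 gene rows of the table. All are protein coding, and all passed the filter on low counts that kept 15956 genes for testing.

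RNA was sequenced from SAS cells, a line grown from a human oral squamous cell carcinoma, in 8 groups of 3 libraries. The groups combine the genotype of NRF2 (WT, or the E79Q form) with no treatment, CB-839 at 0.1 µM, X-rays at 4 Gy, or both. NRF2, the product of NFE2L2, is the transcription factor of the antioxidant response, and E79Q alters the stretch of NRF2 that its inhibitor KEAP1 grips. CB-839 inhibits glutaminase, the enzyme that turns glutamine into glutamate. The drug or its vehicle was given for 24 hours before radiation, and RNA of irradiated cells was taken 24 hours after it. No harvest time was recorded here for the unirradiated cells. Only 12 irradiated samples, in 4 groups, are mentioned in the design text. The labels and the table cover 24, all of which were used. The sources do not say how the E79Q cells were made, whether they are a clone, or whether the 3 libraries of a group came from separate cultures, so a p-value here measures only the spread between these libraries.

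Before a chromosome is copied, the origin recognition complex, with CDC6 and CDT1, loads the ring-shaped MCM2-7 helicase onto DNA, and geminin (GMNN) blocks a second loading. CDC45 and the GINS complex then turn the helicase on, and polymerase alpha with primase, polymerases delta and epsilon, the sliding clamp PCNA and its loader RFC build the new strands. Most of these genes are transcribed late in G1 and in S phase under E2F factors, whose best known targets include the cyclins E and the MCM genes, and the proteins of many of them mark proliferating cells in tissue.

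Because E2F is the textbook regulator of the set, the promoters were searched for its site, and the windows of 4 members are shown for the match they hold. RefSeq promoter windows of 300 bases (250 before the start and 50 after it, build GRCh38.p14) were given for 38 of the 45 members. The E2F site was searched as TTTCCCGC, TTTGGCGC, TTTCGCGC or TTTGCCGC on both strands, and overlapping matches were each counted. In the sequences below, printed 5′ to 3′ on the strand of the gene, capitals mark the matches. The window of MCM6, a helicase subunit, covers chr2:135876492-135876625 on the minus strand, and its 2 runs of capitals each hold 2 overlapping matches. The window of PCNA covers chr20:5126644-5126711 on the minus strand, that of POLA1, the catalytic subunit of polymerase alpha, chrX:24693751-24693818 on the plus strand, and that of E2F2 chr1:23531238-23531305 on the minus strand. All 4 lie before the annotated start of their gene.
MCM6: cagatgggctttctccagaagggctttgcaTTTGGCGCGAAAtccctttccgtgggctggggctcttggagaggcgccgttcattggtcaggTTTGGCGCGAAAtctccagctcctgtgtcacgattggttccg
PCNA: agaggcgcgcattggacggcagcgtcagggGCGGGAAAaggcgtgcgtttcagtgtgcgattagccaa
POLA1: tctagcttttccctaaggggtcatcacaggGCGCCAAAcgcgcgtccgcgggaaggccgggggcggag
E2F2: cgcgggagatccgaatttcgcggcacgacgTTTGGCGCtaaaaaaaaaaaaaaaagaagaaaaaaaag

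An E2F match was present in 19 of the 38 members (50%), against 3.33% of all 27305 promoters of that length and 3 of 24 promoters of mitotic genes (12.5%). The CHR element of mitotic genes, searched as TTTGAA, was found in 0 of 38 members, against 15.4% of all promoters and 70.8% of the mitotic genes. CCAAT boxes (CCAAT) were found in 55.3% of the members and 35.7% of all promoters. The core of the antioxidant response element through which NRF2 acts (TGACNNNGC) was found in 7 members (18.4%: MCM2, GMNN, PCNA, RFC2, PRIM1, CHAF1B and CCNE1), against 13.6% of all promoters. The members with an E2F match were MCM2, MCM3, MCM6, MCM7, MCM8, CDC6, CDT1, GINS1, GINS2, GINS3, PCNA, RFC3, POLA1, POLA2, POLE, POLE2, LIG1, E2F1 and E2F2. A match is a run of letters and not a measured binding site.

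**Figure D1:**
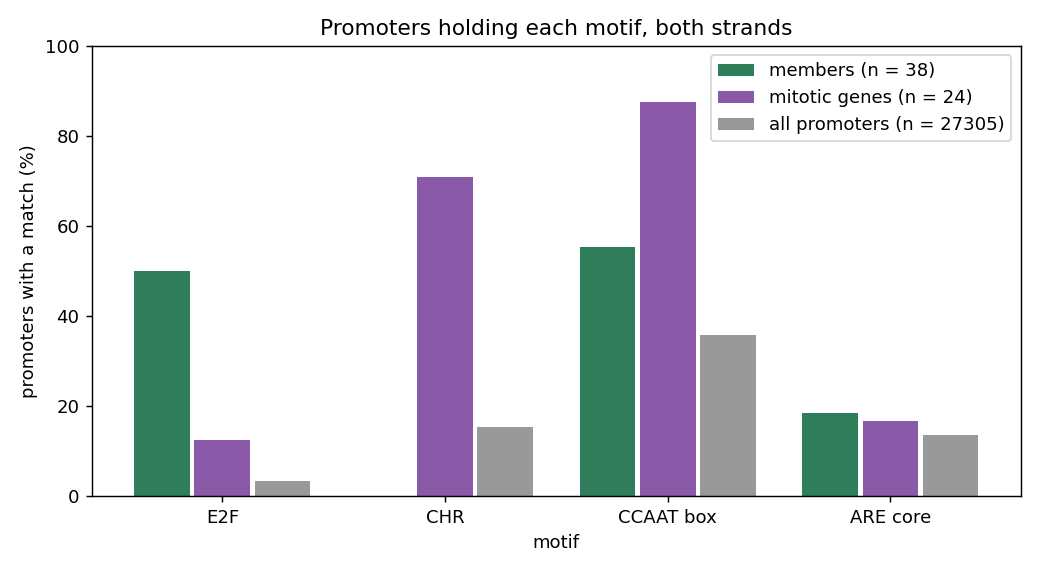
Share of RefSeq promoter windows (%, y axis) that hold each searched motif (x axis) among 38 members, 24 mitotic genes and all 27305 promoters. The members stand highest for the E2F site (50%) and hold no CHR element, whereas 70.8% of the mitotic genes hold one.

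Libraries held 14285084 to 23640197 counts. The lowest count of a member in any library was 89, for E2F2. Log2 CPM values correlated at r = 0.985 to 0.992 within groups and 0.969 to 0.989 between them, and no 2 libraries were copies. NQO1 and AKR1C1, NRF2 target genes, read 354 and 7.83 CPM in untreated WT cells and 587 and 58.1 CPM in untreated E79Q cells. Gene counts carry no information on the base change. The epithelial markers summed to 1651 to 3173 CPM, leukocyte markers to at most 0.952 CPM and endothelial markers to at most 4.96 CPM in all libraries. The epithelial sum was lower in E79Q than in WT cells under each treatment, with 1961 to 2092 against 3124 to 3173 CPM in untreated cells. The fibroblast markers COL1A1 and COL1A2 read 29.5 and 15.3 CPM in untreated E79Q replicate 2 alone, where the other libraries of that group had at most 7.29 and 0.736 CPM. Leaving this library out gave 22 members lower after radiation in E79Q cells (25 with it) and 3 called between untreated genotypes (7 with it). All genes called were then 19% (22.3% with it) and 15.7% (19.7% with it). In 4 libraries (E79Q with radiation and CB-839 replicate 2, WT with radiation and CB-839 replicate 1, untreated E79Q replicate 1 and WT with CB-839 replicate 3) the deviation of 7899 well expressed genes from their group mean rose with GC content, with r = 0.76, 0.65, 0.55 and 0.53. Deviations within a group sum to 0, so other libraries of these groups go the opposite way, down to r = -0.77 in E79Q with radiation and CB-839 replicate 1. Counts with GC and length trends removed, and without these 4 libraries, are given below where they move a count of calls by over 1.5 times.

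The members span a wide range of levels. On the scale of CPM per kilobase of gene length, MCM7 stood highest at 178 and E2F2 lowest at 1.5, with a median of 18.0 over the 45. Within a gene, the highest and lowest group means differed by 1.30-fold in the median member, from 1.07-fold for POLE, the catalytic subunit of polymerase epsilon, to 1.99-fold for CCNE2. All changes of the members below are therefore small in fold terms, and the question is whether they exceed the spread between libraries.

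A large share of the set was lower after radiation in both genotypes. In WT cells without CB-839, 16 of 45 members fell and 2 rose at an edgeR quasi-likelihood adjusted p (Benjamini-Hochberg over all 15956 genes) under 0.05. Over all genes, 8.49% fell and 9.41% rose. In E79Q cells without the drug, 25 of 45 fell, against 10.1% of all genes, and 0 rose, against 12.2% (1 member was higher at an unadjusted p under 0.05, and 0 by DESeq2). The median log2 fold change of the members was -0.11 in WT and -0.24 in E79Q cells, while the median of all genes was 0.0040 and 0.020. All 16 members that fell in WT cells also fell in E79Q cells, where they are 64.0% of the 25. The 2 comparisons share no libraries.

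Members with high levels, such as MCM4 and MCM7 at 1016 and 884 CPM in untreated WT cells, weigh most in a sum. The summed level of the 45 genes was lower after radiation. It was 6183 ± 55.4 CPM (SD, n = 3) in untreated WT cells and 5623 ± 80.0 after radiation, and 6290 ± 105 CPM in untreated E79Q cells and 5373 ± 31.6 after radiation. No irradiated library reached the level of an untreated library of its genotype. The mean log2 CPM of the members, which weighs each gene alike, was 6.28 to 6.32 before and 6.17 to 6.20 after radiation in WT cells. In E79Q cells it was 6.33 to 6.37 before and 6.15 to 6.17 after. The sum of 30 mitotic genes was 4464 ± 68.9 CPM before and 4547 ± 109 after radiation in WT cells, and 4986 ± 124 before and 4626 ± 22.4 after in E79Q cells. In RNA of whole cultures, fewer cells in S phase and less RNA per cell cannot be told apart. Whether irradiated and unirradiated libraries were made together is not stated, so a batch or a harvest at another time cannot be told apart from radiation either.

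**Figure D2:**
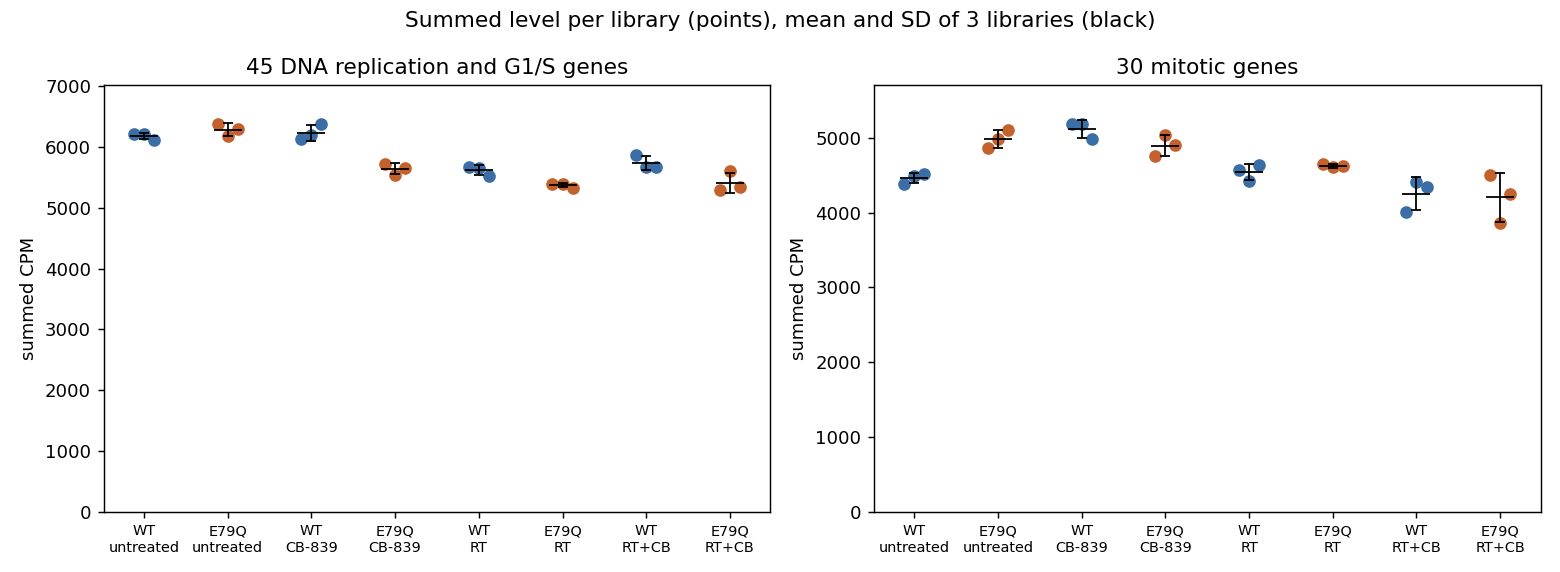
Summed CPM (y axis) of the 45 members (left) and of 30 mitotic genes (right) in each library (points), by group (x axis; RT, radiation; CB, CB-839), with the mean and SD of 3 libraries in black. The members' sum averages 6183 to 6290 CPM in the untreated groups and in WT cells given CB-839, and 5373 to 5738 CPM in the other 5 groups.

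**Figure D3:**
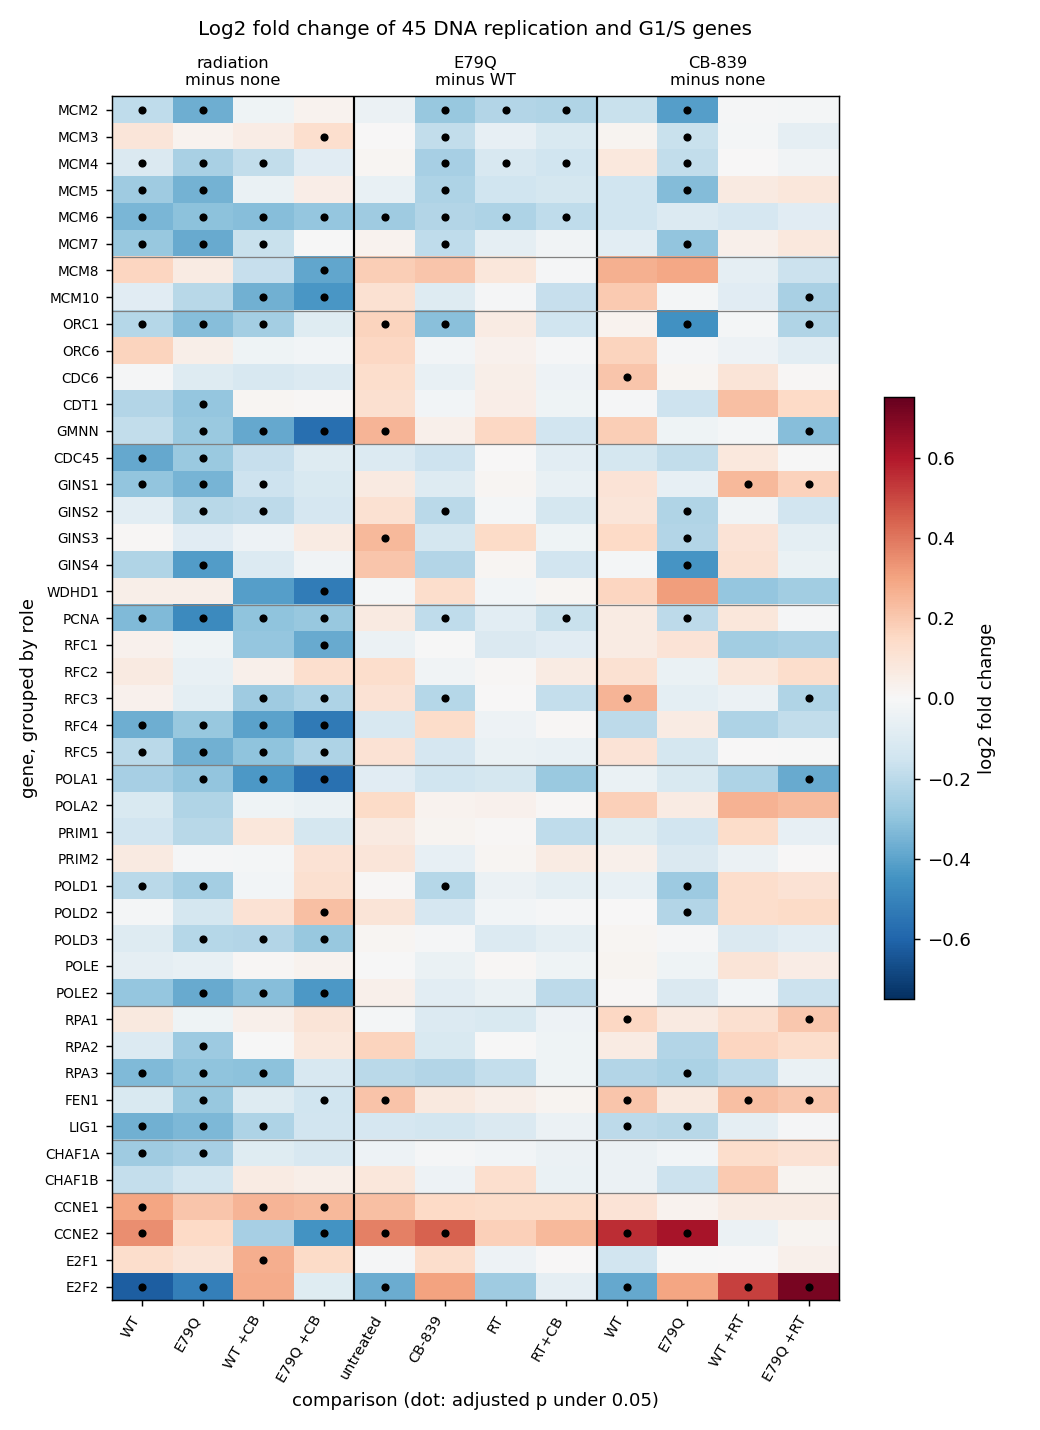
Log2 fold change (colour) of each member (rows, grouped by role) in 12 comparisons (columns), with a dot where the adjusted p is under 0.05. The radiation columns without CB-839 hold 16 and 25 falls, and MCM6, PCNA, RFC4 and RFC5 are lower in all 4 radiation columns.

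Of the MCM2-7 helicase, the ring that opens the double strand, 5 of 6 subunits fell with radiation in each genotype. MCM2 read 468, 450.1 and 451 CPM in untreated WT cells and 403, 406 and 388 CPM after radiation, and 471, 426 and 430.3 against 339.8, 337 and 352 CPM in E79Q cells. The groups did not overlap in either genotype, and the drop was -0.19 in WT cells (SE 0.066, edgeR adjusted p = 0.0425) and -0.37 in E79Q cells (SE 0.066, edgeR adjusted p = 0.000162). MCM6 read 169.9, 163 and 159 CPM before and 129, 129 and 129 CPM after radiation in WT cells, and 130.1, 139 and 139 before and 111, 109.8 and 109 CPM after in E79Q cells. Its log2 fold changes were -0.34 (SE 0.057, edgeR adjusted p = 6.99e-05) and -0.31 (SE 0.057, edgeR adjusted p = 0.000236). MCM3 was the exception, with 0.092 in WT cells (SE 0.040, edgeR adjusted p = 0.121) and 0.025 in E79Q cells (SE 0.040, edgeR adjusted p = 0.709), neither past the threshold. MCM8, a helicase relative that acts in recombination, and MCM10, which helps to fire origins, were not called in either genotype.

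Among the licensing factors, ORC1, the subunit of the origin recognition complex that comes and goes with the cell cycle, fell in both genotypes. It read 69.9, 72.1 and 75.0 CPM before and 60.6, 63.8 and 63.0 CPM after radiation in WT cells (log2 fold change -0.21, SE 0.057, edgeR adjusted p = 0.00909). In E79Q cells it read 81.8, 79.7 and 81.6 before and 65.4, 63.1 and 66.8 CPM after (log2 fold change -0.32, SE 0.056, edgeR adjusted p = 0.000132). CDT1, which brings the helicase to origins, had 109, 102 and 100.2 CPM before and 92.8, 90.4 and 83.6 CPM after radiation in WT cells, and 119.5, 108 and 109.9 against 98.0, 86.0 and 91.6 CPM in E79Q cells. The libraries did not overlap, yet the drop passed the test in E79Q cells (log2 fold change -0.29, SE 0.087, edgeR adjusted p = 0.0152) and not in WT cells (-0.22, SE 0.087, edgeR adjusted p = 0.0809). Its inhibitor GMNN had 37.8, 38.8 and 38.6 against 32.2, 33.7 and 35.4 CPM in WT cells and 41.8, 45.8 and 49.8 against 37.9, 37.3 and 37.8 CPM in E79Q cells. It too was called in E79Q cells alone (-0.28, SE 0.084, edgeR adjusted p = 0.0156), with -0.19 in WT cells (SE 0.086, edgeR adjusted p = 0.142). CDC6, the loader ATPase, read 134, 139.7 and 128 CPM before and 133, 131 and 136 CPM after in WT cells, and 144, 149.5 and 148 against 136, 145 and 131 CPM in E79Q cells. Its libraries overlapped in both genotypes, and neither CDC6 nor ORC6 passed the test.

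CDC45, which completes the active helicase, showed the second largest fall in WT cells. It read 61.1, 59.7 and 60.6 CPM before and 46.4, 45.8 and 46.9 CPM after radiation (log2 fold change -0.38, SE 0.072, edgeR adjusted p = 0.000314), and 58.0, 51.1 and 59.9 against 46.8, 45.5 and 46.9 CPM in E79Q cells (log2 fold change -0.28, SE 0.072, edgeR adjusted p = 0.00536). GINS1, a subunit of the GINS complex, fell in both genotypes (-0.30 and -0.35). GINS4 read 33.1, 35.5 and 33.3 CPM before and 30.7, 27.9 and 28.3 CPM after in WT cells, and 41.0, 39.0 and 37.6 against 32.0, 25.8 and 30.1 CPM in E79Q cells. The groups were apart in both, but the drop was called only in E79Q cells (log2 fold change -0.42, SE 0.081, edgeR adjusted p = 0.000382; in WT cells -0.23, SE 0.082, edgeR adjusted p = 0.0543), and the difference between genotypes was not past the threshold. GINS2 was called lower in E79Q cells (-0.21), and GINS3 and WDHD1, a link between helicase and polymerase alpha, in neither.

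PCNA, the clamp that tethers polymerases to DNA, had the lowest adjusted p of the 45 in both genotypes. It read 203, 206 and 185 CPM in untreated WT cells and 155, 162 and 155 CPM after radiation (log2 fold change -0.33, SE 0.050, edgeR adjusted p = 2.23e-05). In E79Q cells it read 205, 209 and 209 before and 148, 150.0 and 149.8 CPM after (log2 fold change -0.48, SE 0.050, edgeR adjusted p = 6.99e-08). The lowest untreated library stood above the highest irradiated library in each genotype. Of the clamp loader, RFC4 and RFC5 fell in both genotypes and RFC1, RFC2 and RFC3 in neither. RFC4 read 86.0, 91.6 and 87.1 CPM before and 68.1, 68.7 and 68.6 CPM after in WT cells (log2 fold change -0.36, SE 0.087, edgeR adjusted p = 0.00344), and 74.6, 85.1 and 84.1 against 64.6, 68.0 and 67.7 CPM in E79Q cells (log2 fold change -0.28, SE 0.087, edgeR adjusted p = 0.0187). RFC5 changed by -0.20 and -0.36.

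Of the 9 polymerase and primase genes, POLD1, the catalytic subunit of polymerase delta, was the sole gene called in WT cells (-0.20, SE 0.068, edgeR adjusted p = 0.037). In E79Q cells 4 of 9 fell: POLD1 (-0.26), POLD3 (-0.21), POLA1 (-0.29) and POLE2 (-0.38), the second subunit of polymerase epsilon. POLE itself, at 172, 165 and 177 CPM in untreated WT cells and 162, 163 and 166 CPM after radiation, barely moved (-0.069; 95% interval -0.18 to 0.042). The primase genes PRIM1 and PRIM2 were not called. RPA3, a subunit of the protein that coats single strands, fell in both genotypes (-0.33 and -0.30), and RPA2 in E79Q cells (-0.27). LIG1, the ligase that seals the lagging strand, fell by 0.36 in WT cells and 0.34 in E79Q cells on the log2 scale. FEN1, the nuclease that trims its fragments, fell in E79Q cells (-0.28, SE 0.053, edgeR adjusted p = 0.00029). CHAF1A, which places histones behind the fork, fell in both (-0.27 and -0.25), and its partner CHAF1B in neither.

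Of the 4 G1/S regulators, both cyclins E rose in WT cells, E2F2 fell in both genotypes and E2F1 was not called. CCNE1, a cyclin that drives S phase entry, read 23.1, 19.1 and 22.1 CPM in untreated WT cells and 27.2, 26.3 and 25.5 CPM after radiation, a rise (log2 fold change 0.30, SE 0.084, edgeR adjusted p = 0.0126). In E79Q cells it read 24.6, 24.6 and 25.9 before and 28.8, 30.8 and 27.2 CPM after, without overlap but not past the threshold (0.21, SE 0.082, edgeR adjusted p = 0.0674). CCNE2, the second cyclin E, read 12.6, 10.2 and 9.42 CPM before and 12.7, 13.1 and 15.5 CPM after in WT cells (log2 fold change 0.35, SE 0.123, edgeR adjusted p = 0.0484), and 13.7, 13.9 and 14.3 against 16.6, 14.4 and 15.4 CPM in E79Q cells (0.15, SE 0.118, edgeR adjusted p = 0.399). E2F1 read 47.9, 47.4 and 47.4 CPM before and 51.3, 55.9 and 48.9 CPM after in WT cells, and 48.4, 46.4 and 47.2 against 54.2, 49.6 and 48.0 CPM in E79Q cells, and was not called. E2F2 showed the largest fall of the set, from 11.3, 9.57 and 9.42 to 6.84, 7.52 and 5.32 CPM in WT cells (log2 fold change -0.62, SE 0.119, edgeR adjusted p = 0.000418) and from 7.67, 7.70 and 8.04 to 4.83, 5.5 and 6.18 CPM in E79Q cells (log2 fold change -0.51, SE 0.124, edgeR adjusted p = 0.00335).

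**Figure D4:**
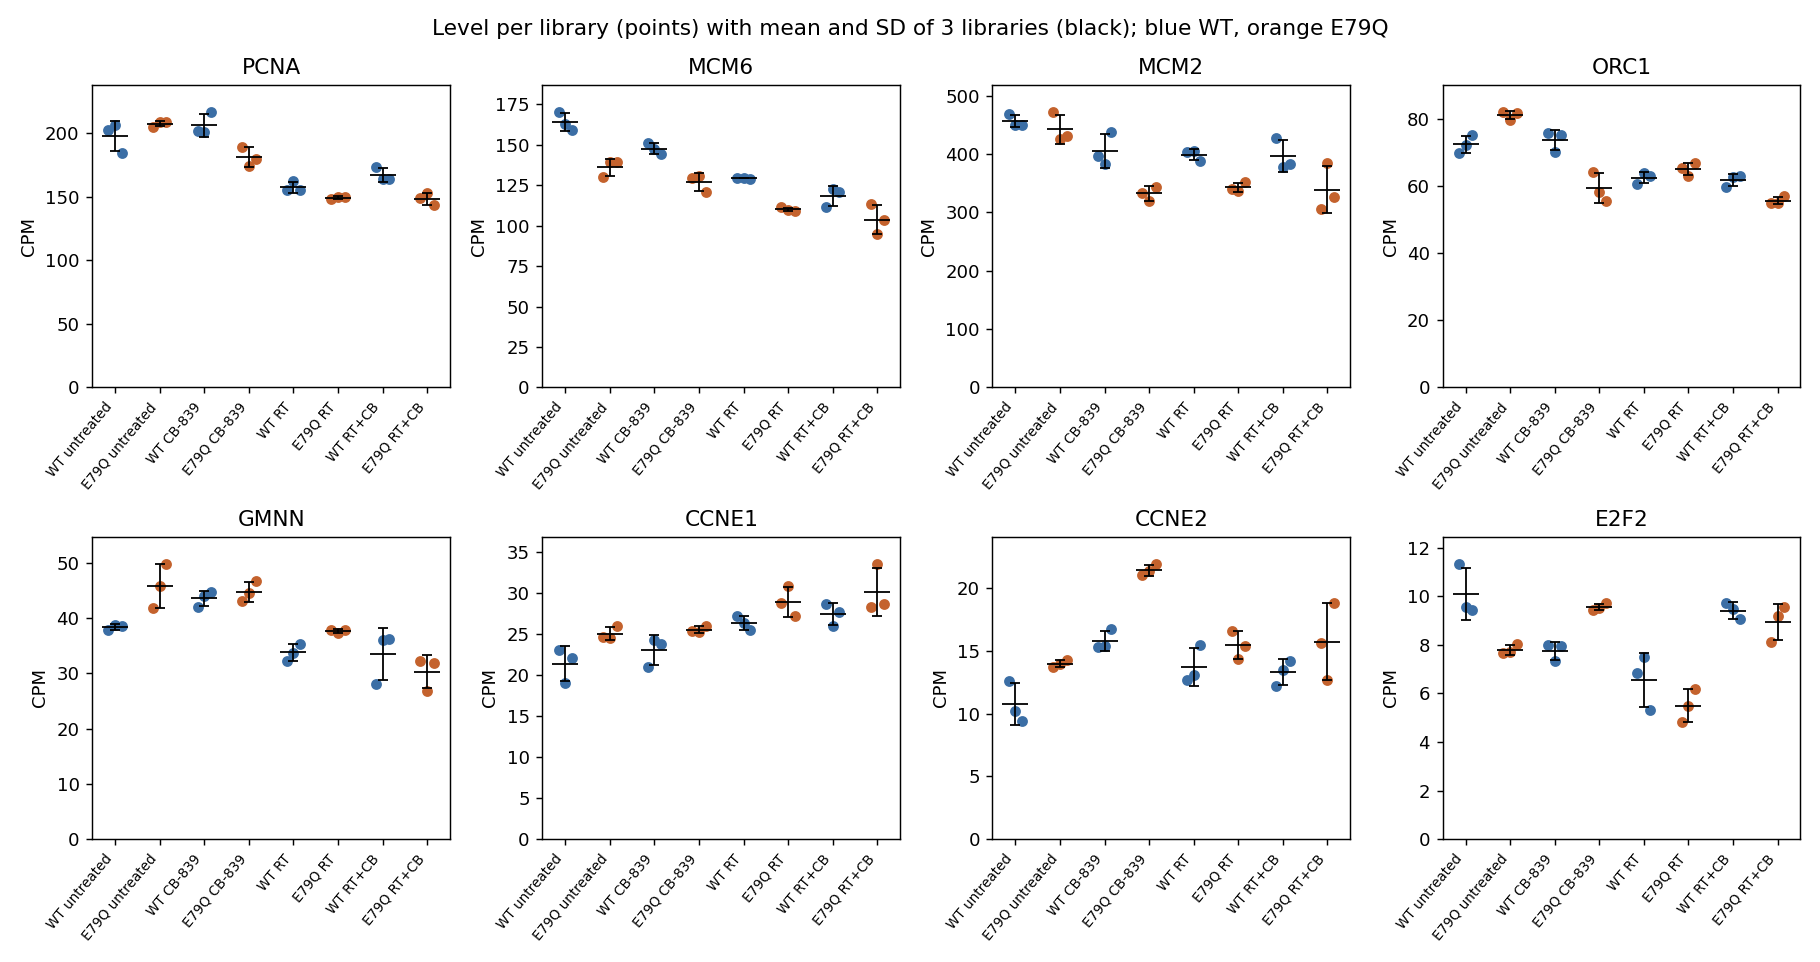
CPM (y axis, from 0) of 8 members in each library (points; blue WT, orange E79Q) by group (x axis; RT, radiation; CB, CB-839), with the mean and SD of 3 libraries in black. PCNA and MCM6 are lower in every irradiated group, CCNE1 is higher there, and CCNE2 is highest in E79Q cells given CB-839, at 21.0 to 21.9 CPM.

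These calls have limits. Leaving out each library in turn left 11 to 15 of 18 calls in WT cells (11 without irradiated WT replicate 1) and 21 to 23 of 25 in E79Q cells. All genes called were 12.6% to 13.7% and 16.7% to 19% in these fits, against 17.9% and 22.3% as reported. The calls of 11 members in WT cells and 17 in E79Q cells held in every such fit. Among those that did not were both cyclins E, MCM2 and ORC1 in WT cells, and CDT1 and GMNN in E79Q cells.

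More members were called in E79Q than in WT cells, but the test of the difference between the 2 radiation effects called 0 of 45 members, against 1.26% of all genes. At an unadjusted p under 0.05 there were 2, MCM4 and FEN1, DESeq2 called 1, and the fit with GC and length trends removed called 2. The effect in E79Q minus that in WT cells was -0.13 for MCM4 (95% interval -0.23 to -0.034) and -0.15 for PCNA (95% interval -0.29 to 0.0012). These intervals are not adjusted for the number of genes. Neither gene passed the adjusted test, so a larger fall in E79Q cells was shown for neither. Members with an E2F match fell in 7 of 19 cases in WT and 11 of 19 in E79Q cells, and those of the 38 without one in 6 of 19 and 8 of 19. For radiation with CB-839, 9 with and 5 without a match fell in WT cells, and 6 and 7 in E79Q cells. For CB-839 in unirradiated E79Q cells the counts were 7 and 3. Between genotypes under CB-839, 7 and 2 were lower in E79Q cells. Whether members with and without a match differ was not tested.

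**Figure D5:**
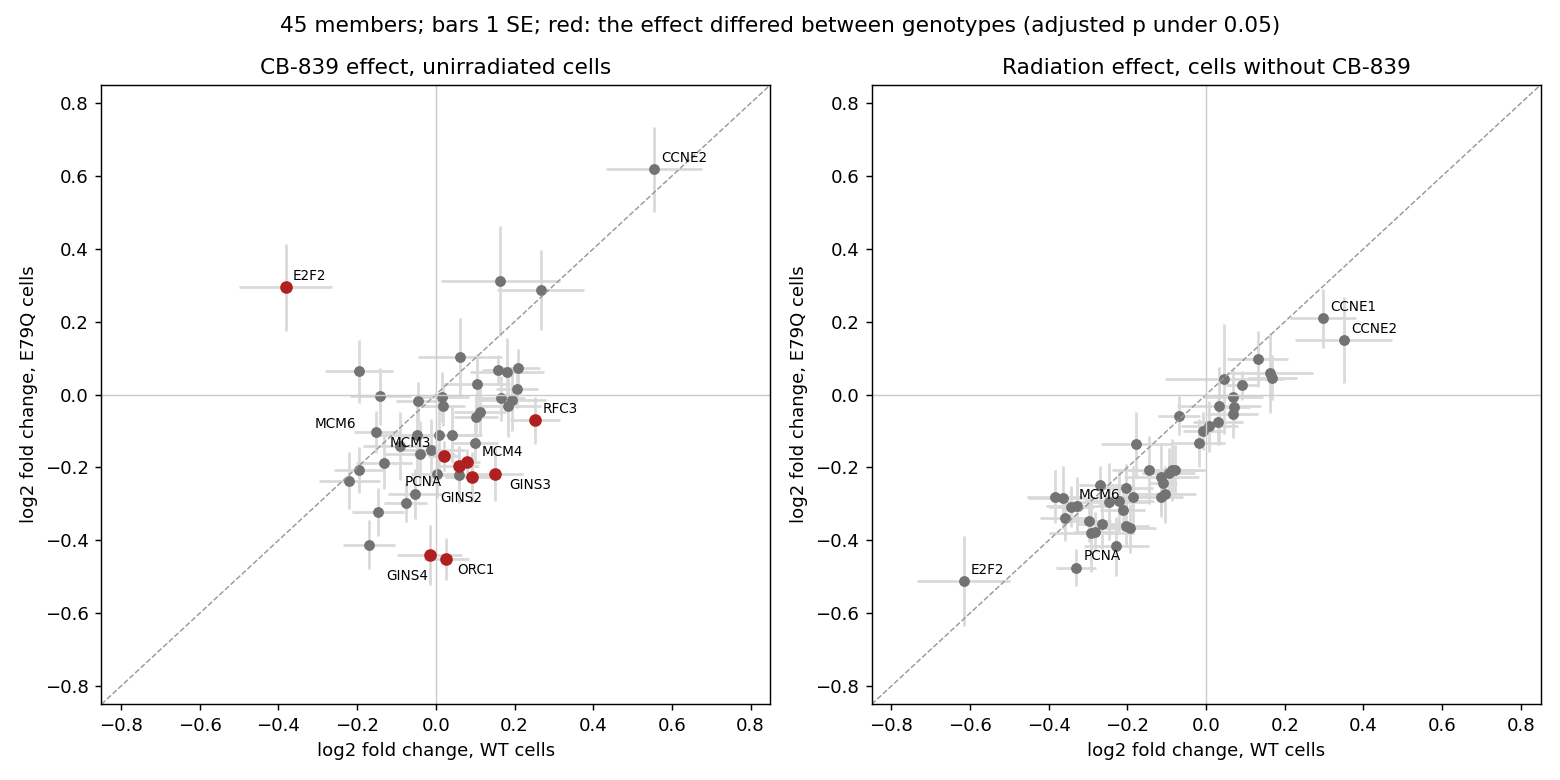
Log2 fold change of the 45 members in E79Q cells (y axis) against WT cells (x axis), for CB-839 in unirradiated cells (left) and for radiation without CB-839 (right), with bars of 1 SE and the line of equal effects dashed. Red marks the 9 members whose drug effect differed between genotypes, and none is red for radiation.

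With CB-839 present, a good part of the set was again lower after radiation, with other genes at the head. In WT cells 17 members fell, against 10.4% of all genes, and 2 rose, against 13.2%. In E79Q cells 15 fell, against 13.9%, and 3 rose, against 15.3%. The median log2 fold change was -0.12 and -0.095. Of the 16 members that fell without the drug in WT cells, 10 fell with it (62.5%, and 58.8% of the 17), and in E79Q cells 9 of 25 did (36.0%, and 60% of the 15). MCM6, PCNA, RFC4 and RFC5 fell in all 4 radiation comparisons, and 31 of the 45 members fell in at least 1. The summed level was 6237 ± 129 CPM with the drug alone and 5738 ± 118 with both in WT cells, and 5646 ± 90.7 and 5412 ± 166 CPM in E79Q cells. The sum of the 30 mitotic genes was 5118 ± 120.4 CPM with the drug alone and 4254 ± 216 with both in WT cells, and 4897 ± 141 and 4204 ± 329 CPM in E79Q cells. Its part in the members' result was not tested.

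POLA1, GMNN and RFC4 showed the 3 largest falls past the threshold in each genotype. POLA1 read 62.9, 58.0 and 53.8 CPM with the drug alone and 38.5, 45 and 45.9 CPM with both in WT cells (log2 fold change -0.43, SE 0.106, edgeR adjusted p = 0.00365), and 48.2, 57.8 and 51.4 against 43.5, 26.9 and 36.9 CPM in E79Q cells (log2 fold change -0.56, SE 0.108, edgeR adjusted p = 0.000381). GMNN read 42.1, 44.1 and 44.6 against 28.1, 36.1 and 36.2 CPM in WT cells (log2 fold change -0.38, SE 0.085, edgeR adjusted p = 0.00141), and 43.0, 44.5 and 46.7 against 32.2, 26.8 and 31.8 CPM in E79Q cells (log2 fold change -0.57, SE 0.086, edgeR adjusted p = 2.16e-05). No irradiated library reached a library without radiation for either gene. RFC4 read 76.6, 75.7 and 78.9 against 56.7, 56.2 and 62.0 CPM in WT cells (log2 fold change -0.40, SE 0.088, edgeR adjusted p = 0.00125), and 82.9, 87.7 and 84.3 against 72.5, 48.1 and 56.1 CPM in E79Q cells (log2 fold change -0.53, SE 0.088, edgeR adjusted p = 6.17e-05). PCNA read 202, 201 and 216 against 173, 164 and 164 CPM in WT cells and 189, 174 and 179.5 against 149, 153 and 143 CPM in E79Q cells, a fall in both (-0.30 and -0.29). The extreme values of POLA1, RFC4 and GMNN in E79Q cells, at 26.9, 48.1 and 26.8 CPM, all belong to replicate 2, the library with the highest such r.

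In E79Q cells with CB-839, 1 of 6 helicase subunits fell (MCM6) and 1 rose, and MCM2, MCM5 and MCM7 were not called. MCM2 read 334, 319 and 344 CPM with the drug alone and 306, 385 and 327 CPM with both (0.029, SE 0.067, edgeR adjusted p = 0.785), and in WT cells 396, 382 and 439 against 428, 378 and 384 CPM. The subunit that rose was MCM3, from 239, 233 and 239 to 255, 267 and 254 CPM (log2 fold change 0.12, SE 0.040, edgeR adjusted p = 0.0205). POLD2, an accessory subunit of polymerase delta, went from 277, 257 and 260.0 to 278, 346 and 303 CPM (log2 fold change 0.23, SE 0.066, edgeR adjusted p = 0.0114). CDC6 read 159, 153 and 151 against 143, 145 and 139 CPM in WT and 148, 149 and 149 against 140.4, 128 and 147 CPM in E79Q cells, and CDT1 98.7, 101 and 109 against 113, 95.5 and 103 CPM and 101, 97.0 and 106 against 87.2, 122 and 95.9 CPM. Neither was called in either genotype. With GC and length trends removed, MCM2 turned to -0.12 (adjusted p = 0.0157) and MCM7 to -0.15 (0.000228) in E79Q cells, and CDT1 to -0.15 (0.0284) in WT and -0.19 (0.00436) in E79Q cells, all called lower in edgeR.

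CCNE1 rose in both genotypes, from 20.9, 24.3 and 23.8 to 28.7, 26.0 and 27.7 CPM in WT cells (log2 fold change 0.25, SE 0.083, edgeR adjusted p = 0.026) and from 25.4, 25.2 and 26.0 to 28.3, 33.5 and 28.7 CPM in E79Q cells (log2 fold change 0.24, SE 0.082, edgeR adjusted p = 0.0275). E2F1, the founding activator of the G1/S genes, rose in WT cells, from 42.0, 43.3 and 44.0 to 57.9, 48.8 and 49.6 CPM (log2 fold change 0.27, SE 0.077, edgeR adjusted p = 0.0105), and had 44.5, 47.1 and 49.8 against 47.3, 58.2 and 50.6 CPM in E79Q cells, which overlap. CCNE2 took the opposite course to CCNE1 in E79Q cells, with 21.0, 21.3 and 21.9 CPM under the drug and 15.6, 12.7 and 18.8 CPM with both (log2 fold change -0.45, SE 0.114, edgeR adjusted p = 0.00436). In WT cells it read 15.3, 15.4 and 16.7 against 12.2, 13.5 and 14.2 CPM (-0.25, SE 0.118, edgeR adjusted p = 0.129).

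With GC and length trends removed, 25 members fell in WT cells with the drug and 22 in E79Q cells, and without the 4 libraries 20 and 19 did. In these fits 27.3% and 27.2%, and 25.5% and 23.6%, of all genes were called in either direction, against 23.7% and 29.2% as reported. The E79Q calls of MCM3, RFC3, POLD2, CCNE1 and CCNE2 and the WT calls of GINS1 and E2F1 were lost when the trends were removed. The CCNE1 calls of both genotypes were also lost without the 4 libraries and in at least 1 fit that left out a library. In such fits 10 of 19 calls in WT cells and 11 of 18 in E79Q cells always held. With the 2 groups fitted alone, E79Q cells had 7 members lower and 0 higher, and 11.5% of all genes were called, against 29.2% as reported. The test of the difference between genotypes called 0 of 45 members, against 1.08% of all genes (3 at an unadjusted p under 0.05, and 0 by DESeq2).

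In untreated cells 7 members (15.6%) were called between the genotypes, a share no higher than the 19.7% of all genes. The count depends on the processing. E79Q cells were higher in 5 of 45, against 9.62% of all genes, and lower in 2, against 10.1%, and the median log2 difference was 0.069 for the members and -0.0068 for all genes. CCNE2 read 13.7, 13.9 and 14.3 CPM in E79Q and 12.6, 10.2 and 9.42 CPM in WT cells (log2 fold change 0.38, SE 0.123, edgeR adjusted p = 0.0308). GMNN read 41.8, 45.8 and 49.8 against 37.8, 38.8 and 38.6 CPM (log2 fold change 0.25, SE 0.084, edgeR adjusted p = 0.0338), and GINS3 28.3, 25.7 and 27.2 against 23.3, 22.9 and 22.6 CPM (log2 fold change 0.24, SE 0.071, edgeR adjusted p = 0.0167). FEN1 (0.21) and ORC1 (0.16) were the others that were higher. E2F2 was lower in E79Q cells, at 7.67, 7.70 and 8.04 against 11.3, 9.57 and 9.42 CPM (log2 fold change -0.37, SE 0.118, edgeR adjusted p = 0.0241), as was MCM6 (log2 fold change -0.27, SE 0.057, edgeR adjusted p = 0.00105), whose values stand above. With GC and length trends removed 12 were higher and 3 lower, with the 2 groups fitted alone 8 and 3, without the 4 libraries with a GC trend 9 and 2, and without the filter on low counts 3 and 1. In these fits 27.4%, 27.4%, 23.5% and 8.02% of all genes were called in either direction, against 19.7% as reported. Only FEN1 and MCM6 held their call in every fit that left out a library, and the count of calls fell to 2 without untreated E79Q replicate 3, 3 without replicate 1 or 2, and 4 without untreated WT replicate 2 or 3. All genes called were 14.3% to 15.7% in the fits that left out a library. Of the 30 mitotic genes, 11 were higher in E79Q cells and 0 lower.

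Under CB-839 the picture was another: 11 members were lower in E79Q than in WT cells, against 6.72% of all genes, and 1 was higher, against 8.3%. All 6 subunits of the MCM2-7 helicase were among them, with a median of -0.23, and so were ORC1, PCNA, RFC3, POLD1 and GINS2. MCM4 read 904, 892 and 908 CPM in E79Q and 1043, 1088 and 1089.6 CPM in WT cells (log2 fold change -0.25, SE 0.034, edgeR adjusted p = 3.63e-06). MCM2 differed by -0.29 (SE 0.067, edgeR adjusted p = 0.00314), with the values given above, and its groups did not overlap. ORC1 read 64.3, 58.3 and 55.4 against 75.6, 70.2 and 75.3 CPM (log2 fold change -0.31, SE 0.057, edgeR adjusted p = 0.00024), the largest difference of a lower member. CCNE2 was the gene that was higher, at 21.0, 21.3 and 21.9 against 15.3, 15.4 and 16.7 CPM (log2 fold change 0.44, SE 0.115, edgeR adjusted p = 0.0084). The median log2 difference was -0.097 for the members and 0.0097 for all genes. The count of calls was 6 without E79Q with CB-839 replicate 2 or 3 and 7 without WT with CB-839 replicate 3, and MCM2, MCM3, MCM4, ORC1 and CCNE2 held in every such fit. All genes called were 10.5% to 10.8% in the fits with 6 or 7 calls, against 15% as reported.

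After radiation few members were called between the genotypes, in shares near those of all genes, and helicase subunits were among them. In either direction the shares were 6.67% without the drug and 8.89% with it, against 9.64% and 7.26% of all genes. Without the drug 3 members were lower in E79Q cells (MCM6 -0.23, MCM2 -0.22 and MCM4 -0.12), against 4.95% of all genes, and 0 were higher, against 4.69% (0 at an unadjusted p under 0.05 and 0 by DESeq2). MCM4 read 865, 870.0 and 864 CPM in irradiated E79Q and 954, 939 and 933 CPM in irradiated WT cells (SE 0.034, edgeR adjusted p = 0.0214). With radiation and CB-839 the same 3 and PCNA were lower, 4 of 45 against 2.86% of all genes, and 0 were higher, against 4.4% (1 at an unadjusted p under 0.05, 0 by DESeq2). MCM4 read 837, 853 and 859.7 against 959, 935 and 937 CPM there (log2 fold change -0.15, SE 0.034, edgeR adjusted p = 0.00482), PCNA differed by -0.17 (SE 0.051, edgeR adjusted p = 0.0382), and MCM2 (-0.22) and MCM6 (-0.19) overlapped between genotypes. MCM6 read 113, 94.8 and 103 CPM in E79Q and 111, 123 and 121 CPM in WT cells in these groups, and was thus lower in E79Q cells in all 4 genotype comparisons, which share no libraries. Leaving out libraries gave 1 or 2 calls without the drug (1 without irradiated WT replicate 1 or 2, or irradiated E79Q replicate 1 or 3). With it there were 1 to 7, namely 1 without replicate 3 of either genotype, 2 without WT replicate 2, and 7 without E79Q replicate 2. All genes called when a library was left out were 6.53% to 7.2% without the drug and 4.52% to 9.98% with it. MCM6 without the drug and MCM4 with it held in every such fit. Without the drug 5 were lower with GC and length trends removed or without the 4 libraries with a GC trend, and 6 with the 2 groups fitted alone. All genes called were 14.4%, 16% and 20.8% in these fits, against 9.64% as reported. With the drug the 2 groups fitted alone gave 0 calls, the replicate block 1, no filter on low counts 2 and the removal of GC and length trends 10 (1 higher, 9 lower). The shares of all genes called were then 1.58%, 6.42%, 3.15% and 12.5%, against 7.26% as reported.

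The effect of CB-839 alone was tested in each genotype and then between them. In WT cells 5 members rose, against 6.35% of all genes, and 2 fell, against 8.44%, with a median log2 fold change of 0.027 (all genes -0.0070). These WT counts depend on the processing: 9 rose and 8 fell without the 4 libraries with a GC trend, 9 and 7 with the 2 groups fitted alone, and 10 and 6 with GC and length trends removed. In these fits 21.6%, 20.6% and 22.1% of all genes were called, against 14.8% as reported. In E79Q cells 14 fell, against 10.4% of all genes, and 1 rose, against 9.44%, with a median of -0.11 (all genes 0.021), and with GC and length trends removed 18 fell and 5 rose. The share of all genes called was 26% in that fit and 19.8% as reported. The summed level was 6183 ± 55.4 CPM without and 6237 ± 129 with the drug in WT cells, and 6290 ± 105 without and 5646 ± 90.7 with it in E79Q cells, where no library with the drug reached one without it. Helicase subunits weigh heavily in that fall: in E79Q means MCM4 went from 1025 to 901, MCM7 from 901 to 733 and MCM2 from 443 to 333 CPM. The mean log2 CPM of the members was 6.28 to 6.32 without and 6.32 to 6.35 with the drug in WT cells. In E79Q cells it was 6.33 to 6.37 without and 6.25 to 6.29 with the drug.

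The falls in E79Q cells included ORC1, most of the helicase and 3 of 4 GINS subunits. ORC1 went from 81.8, 79.7 and 81.6 to 64.3, 58.3 and 55.4 CPM (log2 fold change -0.45, SE 0.057, edgeR adjusted p = 1.47e-06), while WT cells had 69.9, 72.1 and 75.0 and 75.6, 70.2 and 75.3 CPM. GINS4 went from 41.0, 39.0 and 37.6 to 31.0, 26.1 and 29.6 CPM (log2 fold change -0.44, SE 0.082, edgeR adjusted p = 0.000289), and WT cells had 31.9, 33.7 and 35.2 CPM with the drug. Of the 6 helicase subunits 5 fell, MCM2 the most (-0.41, SE 0.067, edgeR adjusted p = 4.83e-05), and MCM6 was at -0.10 (SE 0.057, edgeR adjusted p = 0.23). GINS2, GINS3, PCNA, POLD1, POLD2, RPA3 and LIG1 made up the 14. Of these calls 10 of the 15 held in every fit that left out a library.

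In WT cells LIG1 and E2F2 fell. E2F2 went from 11.3, 9.57 and 9.42 to 8.01, 7.32 and 7.94 CPM (log2 fold change -0.38, SE 0.118, edgeR adjusted p = 0.0269) and LIG1 from 78.7, 77.2 and 75.0 to 67.9, 67.0 and 66.6 CPM (log2 fold change -0.20, SE 0.063, edgeR adjusted p = 0.033). RFC3 rose from 115, 117 and 119.7 to 143, 139 and 138 CPM (log2 fold change 0.25, SE 0.063, edgeR adjusted p = 0.00667), and CDC6, FEN1 and RPA1 rose by 0.21, 0.21 and 0.16. CCNE2 rose in both genotypes, from 12.6, 10.2 and 9.42 to 15.3, 15.4 and 16.7 CPM in WT cells (log2 fold change 0.55, SE 0.122, edgeR adjusted p = 0.00205) and from 13.7, 13.9 and 14.3 to 21.0, 21.3 and 21.9 CPM in E79Q cells (log2 fold change 0.62, SE 0.117, edgeR adjusted p = 0.000319), with no overlap in either. The WT calls were 3 without untreated WT replicate 1, and RFC3 and CCNE2 held throughout. Without that library 9.86% of all genes were called, against 14.8% as reported.

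The test of the difference between genotypes called 9 members. The drug effect was lower in E79Q cells for 8, against 6.83% of all genes, and higher for 1, against 7.46%, with a median difference of -0.14 (all genes 0.031). The 8 were ORC1 (log2 fold change -0.48, SE 0.080, edgeR adjusted p = 0.00013), GINS4 (-0.42), GINS3 (-0.37), RFC3 (-0.32), GINS2 (-0.32), MCM4 (-0.26), PCNA (-0.26) and MCM3 (-0.19). E2F2 went the other way (log2 fold change 0.68, SE 0.167, edgeR adjusted p = 0.00649), with 7.67, 7.70 and 8.04 CPM before and 9.45, 9.54 and 9.71 CPM under the drug in E79Q cells. No library of the 2 E79Q groups overlapped, although that rise alone was not past the threshold (0.29, SE 0.119, edgeR adjusted p = 0.0843). With GC and length trends removed 17 were lower and 2 higher, and with the 4 groups fitted alone 14 and 2. All genes called were 22.5% and 19.7% there, against 14.3% as reported. Without E79Q with CB-839 replicate 2 the count was 4, and 11% of all genes were called. MCM4, ORC1, RFC3 and E2F2 held in every fit that left out a library.

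In irradiated cells the drug moved fewer members. In WT cells 3 rose, against 4.99% of all genes, and 0 fell, against 4.53% (5 lower at an unadjusted p under 0.05, 0 by DESeq2). In E79Q cells 4 rose, against 12.9% of all genes, and 5 fell, against 13.1%, shares no higher than the background. E2F2 rose in both, from 6.84, 7.52 and 5.32 to 9.72, 9.46 and 9.05 CPM in WT cells (log2 fold change 0.51, SE 0.119, edgeR adjusted p = 0.00649) and from 4.83, 5.5 and 6.18 to 8.12, 9.20 and 9.55 CPM in E79Q cells (log2 fold change 0.71, SE 0.121, edgeR adjusted p = 9.33e-05). GINS1 rose in both, from 90.6, 80.2 and 81.5 to 101, 98.5 and 99.1 CPM in WT cells (log2 fold change 0.24, SE 0.057, edgeR adjusted p = 0.00675), and by 0.17 in E79Q cells (SE 0.056, edgeR adjusted p = 0.0246). FEN1 rose in both as well (0.23 in WT, 0.20 in E79Q cells), and RPA1 in E79Q cells (0.20). POLA1 fell from 47.4, 47.4 and 43.9 to 43.5, 26.9 and 36.9 CPM (log2 fold change -0.38, SE 0.108, edgeR adjusted p = 0.0108) and GMNN from 37.9, 37.3 and 37.8 to 32.2, 26.8 and 31.8 CPM (log2 fold change -0.32, SE 0.085, edgeR adjusted p = 0.00721) in E79Q cells, beside MCM10, ORC1 and RFC3. Of the E79Q calls, FEN1 and RFC3 were lost with GC and length trends removed, GINS1 and MCM10 without the 4 libraries with a GC trend, and all but 1 of the 9 with the 2 groups fitted alone. In that last fit 10.8% of all genes were called, against 26% as reported. In WT cells 6 rose and 0 fell with GC and length trends removed, 4 rose and 3 fell without the 4 libraries or with the 2 groups fitted alone, and 4 and 2 without the filter on low counts. All genes called were 14.1%, 12.7%, 14.2% and 4.93% in these WT fits, against 9.53% as reported. The E79Q count was 4 without the irradiated E79Q with CB-839 replicate 2 and 16 without replicate 1 of that group, and the WT count was 1 without irradiated WT replicate 3. All genes called were 17.4%, 32.1% and 4.31% in these fits. The difference between genotypes was called for 0 members, against 1.91% of all genes (2 at an unadjusted p under 0.05, 0 by DESeq2), and for 1 without WT with radiation and CB-839 replicate 1 or without the 4 libraries with a GC trend. In these last fits 1.8% and 4.41% of all genes were called.

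Whether the radiation effect itself depended on the drug was tested within each genotype. In WT cells 1 member had a higher effect with the drug, against 2.75% of all genes, and 1 a lower, against 1.27%. These were E2F2 (log2 fold change 0.90, SE 0.167, edgeR adjusted p = 0.00153), which fell with radiation alone and not with the drug present, and CCNE2 (log2 fold change -0.60, SE 0.171, edgeR adjusted p = 0.0442), which rose with radiation alone and not with the drug present. E2F2 held in every fit that left out a library, whereas CCNE2 was kept only without untreated WT replicate 1, in 1 of 12 such fits. Without the 4 libraries with a GC trend 2 members had a higher and 6 a lower effect, and with the 4 groups fitted alone 1 and 4 did. All genes called were 11.2% and 9.28% there, against 4.02% as reported. In E79Q cells 9 had a higher effect, against 7.83% of all genes, and 2 a lower, against 6.66%, with a median of 0.13 (all genes -0.039). The 9 were MCM5 (log2 fold change 0.41, SE 0.094, edgeR adjusted p = 0.00806), MCM2 (log2 fold change 0.40, SE 0.094, edgeR adjusted p = 0.00965), MCM7, MCM4, GINS1, GINS4, POLD1, POLD2 and RPA2. MCM5 read 275, 262 and 259 CPM in untreated E79Q cells, 216, 201 and 204 CPM after radiation, 210.5, 208 and 218 CPM with the drug and 199, 255 and 205 CPM with both. The libraries with the drug alone overlapped those with radiation alone, and with both agents replicate 1 lay just below, replicate 3 within and replicate 2 above the range of those 6 libraries. CCNE2 (-0.60) and MCM8 (-0.45), at 65.3, 72.9 and 67.9 CPM with the drug and 63.0, 39.4 and 55.4 CPM with both, were the 2 with a lower effect. The E79Q count ranged from 5 without untreated E79Q replicate 1 to 20 without the irradiated E79Q with CB-839 replicate 1, with 6 without E79Q with CB-839 replicate 2 or the irradiated E79Q with CB-839 replicate 2, and 7 without irradiated E79Q replicate 1. The share of all genes called moved too: it was 5.79%, 26%, 6.16%, 7.38% and 9.43% in these fits, in that order. With the 4 groups fitted alone 4 had a higher and 0 a lower effect, and without the 4 libraries with a GC trend 6 and 1. The shares of all genes called were 5.44% and 8.67% there, against 14.5% as reported. The calls of MCM8 and CCNE2 in E79Q cells and of CCNE2 in WT cells were lost when GC and length trends were removed, and MCM5 and MCM2 in E79Q cells were then at 0.27 and 0.23.

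Other genes of the pathway, from 4 lists, are given beside the shares of all genes that fell with radiation (8.49% in WT, 10.1% in E79Q cells, and 10.4% and 13.9% with CB-839). The shares that rose were 9.41% in WT and 12.2% in E79Q cells, and 13.2% and 15.3% with CB-839. Of 33 other replication factors, 8 fell and 0 rose with radiation in WT cells, and 10 fell and 1 rose in E79Q cells. TIMELESS, a fork protection factor, fell by 0.27 and 0.41, and RECQL4, a helicase that helps to start replication, by 0.30 and 0.32. Of 11 genes of nucleotide supply, 1 fell and 1 rose in WT cells and 5 fell in E79Q cells, where DUT, which removes dUTP, fell by 0.38 and TYMS, the thymidylate synthase, by 0.38. Of 29 other G1/S regulators tested, 4 rose and 1 fell in WT cells and 5 rose and 8 fell in E79Q cells. CDKN1A, the p53 target that inhibits the cyclin E kinase, read 55.9 CPM in untreated and 91.6 CPM in irradiated WT cells (0.71 on the log2 scale) and 38.2 and 103 CPM in E79Q cells (1.43), and SKP2, which tags CDKN1B for breakdown, fell in both (-0.40 and -0.48). Of 30 mitotic genes, 2 rose and 0 fell in WT cells, and 2 rose and 10 fell in E79Q cells. Under CB-839 alone in E79Q cells, where 9.44% of all genes rose and 10.4% fell, 2 rose and 2 fell of the replication factors. Of the regulators 5 rose and 5 fell, of the nucleotide genes 0 and 5, and of the mitotic genes 1 and 6. For radiation with CB-839 present, 16 (WT) and 20 (E79Q) of the 33 replication factors fell and 1 and 2 rose. Of the mitotic genes 13 and 9 fell and 0 and 1 rose, of the regulators 5 and 8 fell and 3 and 3 rose, and of the nucleotide genes 2 and 4 fell and 0 and 2 rose.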

How the data were processed

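RNA of 24 libraries was measured as whole-number read counts per gene, which the authors deposited as 1 raw count table. STAR, HTSeq and build GRCh38 are named in the submitters' processing notes, without versions, and neither the annotation release nor the strand setting is stated there. The last 3 columns were matched to E79Q cells with radiation and CB-839 through the sample titles. Members and gene lists were chosen with earlier results of these data known.

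Genes were kept by edgeR's filterByExpr, scaled by TMM, and fitted over all 8 groups with edgeR 4.0.16 (R 4.3.3), quasi-likelihood tests and Benjamini-Hochberg adjustment over 15956 genes, with 16 residual degrees of freedom. CPM values use TMM library sizes. Comparisons were 12 of 2 groups and 6 of 4 groups. Members printed by library were the largest called changes each way in a comparison and MCM2, CDC6, CDT1, GMNN, PCNA, CCNE1, CCNE2 and E2F1 under radiation, and others were named after their values were seen. A single comparison of 3 against 3 libraries cannot go below an exact p of 0.1. Alternatives were DESeq2 1.42.0, its size factors, no filter, the compared groups alone, a replicate block, GC and length trends removed, and libraries left out. On simulated counts of 15584 genes, 32% of 1.25-fold and 70% of 2-fold changes were recovered in the WT radiation comparison. In the 4-group test of the genotype difference in the drug effect, 4% of 1.25-fold, 40% of 1.5-fold and 70% of 2-fold changes were recovered. The changed genes, 50 for each fold, were drawn at random from all levels. A changed gene that the filter dropped counted as missed. In the data 17.9% of all genes were called for radiation in WT cells, far more than were changed here. These rates therefore need not hold for the members. Same-numbered libraries of different groups did not deviate together (0 correlations over 0.1), so no pairing by number was seen or used. These deviations follow the GC trends of the libraries, so a small effect shared by a number could be missed.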

Additional observations from a re-analysis of the deposited data

Results flagged for a closer look

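The effect of CB-839 in unirradiated cells differed between genotypes (E79Q minus WT, edgeR adjusted p under 0.05) for 9 members, with log2 differences of -0.19 for MCM3, -0.26 for MCM4, -0.48 for ORC1, -0.32 for GINS2, -0.37 for GINS3, -0.42 for GINS4, -0.26 for PCNA, -0.32 for RFC3 and 0.68 for E2F2. In WT cells the radiation effect differed with and without CB-839 for 2 members, -0.60 for CCNE2 and 0.90 for E2F2. In E79Q cells it differed for 11 members, 0.40 for MCM2, 0.16 for MCM4, 0.41 for MCM5, 0.37 for MCM7, -0.45 for MCM8, 0.23 for GINS1, 0.39 for GINS4, 0.38 for POLD1, 0.36 for POLD2, 0.35 for RPA2 and -0.60 for CCNE2. With GC and length trends removed, the differences of CCNE2 in WT cells and of CCNE2 and MCM8 in E79Q cells were no longer past the threshold, and the others were. Sizes moved as well. The positive E79Q differences were then 0.23 for MCM2, 0.14 for MCM4, 0.27 for MCM5, 0.21 for MCM7, 0.44 for GINS1, 0.39 for GINS4, 0.20 for POLD1, 0.17 for POLD2 and 0.32 for RPA2. The causes of these differences were not tested.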

How the results depend on the processing

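DESeq2 size factors in edgeR left the number of called members within 1.5 times in all 18 comparisons, and DESeq2 did so except for the genotype difference in the radiation effect without CB-839 (1, against 0). Without the filter on low counts, 4 members were called between untreated genotypes, 2 between irradiated genotypes given CB-839 and 6 for CB-839 in irradiated WT cells. With the compared groups fitted alone the counts were 11 between untreated genotypes, 6 between irradiated genotypes, 0 between irradiated genotypes given CB-839, 7 for radiation in E79Q cells with CB-839, 16 for CB-839 in WT cells, 7 in irradiated WT cells, 1 in irradiated E79Q cells, 16 for the genotype difference in the drug effect, and 5 (WT) and 4 (E79Q) for the radiation by drug difference. With GC and length trends removed they were 15, 5 and 10 between untreated, irradiated, and irradiated and drug-treated genotypes, 16, 6 and 23 for CB-839 in WT, irradiated WT and E79Q cells, and 2 and 19 for the genotype differences in the radiation effect without CB-839 and in the drug effect. The same removal turned CDT1 to -0.15 (WT) and -0.19 (E79Q) and MCM2 to -0.12 (E79Q) for radiation with CB-839, values near 0 and not called otherwise. Without the 4 libraries with a GC trend the counts were 11 and 5 between untreated and irradiated genotypes, 17 and 7 for CB-839 in WT and irradiated WT cells, 1 for the genotype difference of the drug effect in irradiated cells, and 8 (WT) and 7 (E79Q) for the radiation by drug difference. The share of all genes called also moved between these fits, so a count of members can move with that share. Between untreated genotypes it was 27.4% with GC and length trends removed or the 2 groups fitted alone, against 19.7% as reported. For radiation in E79Q cells with CB-839 it was 11.5% with the 2 groups fitted alone, against 29.2%. The cause was not tested.

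Replicate numbers are shared by all groups but 4 of 24 libraries lay closest to their own number. With the replicate block 1 member was called between irradiated genotypes given CB-839, and the other counts stayed within 1.5 times.

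Leaving out each library gave 2 to 5, 6 to 13, 1 to 2 and 1 to 7 calls between genotypes in untreated, drug-treated, irradiated and doubly treated cells. Radiation gave 11 to 15 (WT), 13 to 17 (WT with CB-839), 21 to 23 (E79Q) and 12 to 18 (E79Q with CB-839). CB-839 gave 3 to 7 (WT), 1 to 3 (irradiated WT), 10 to 16 (E79Q) and 4 to 16 (irradiated E79Q). Genotype differences gave 0 to 0 in both radiation effects, 4 to 11 in the drug effect and 0 to 1 in irradiated cells, and the radiation by drug difference gave 1 to 2 (WT) and 5 to 20 (E79Q). The share of all genes called moved in these fits as well. For that last difference it was 5.79% at 5 calls and 26% at 20, against 14.5% as reported. For CB-839 in irradiated E79Q cells it was 17.4% at 4 calls and 32.1% at 16, against 26%. With 3 libraries a group, small changes were often missed in the simulated counts, whose changed genes were not the members.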
